A study of Mus musculus with 6 samples.

Results

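Cytochrome P450 genes of families 1 to 4 were compared between the ileum, the final stretch of the small bowel, of wild type mice and of TLR4ΔIEC mice. The genes were taken by name: every gene symbol made of Cyp, a family number from 1 to 4, a subfamily letter and a gene number. This gave 74 genes among the 21950 that both deposited columns list, namely 3 genes of family 1, 48 of family 2, 7 of family 3 and 16 of family 4. Another 10 symbols of these families carry a further letter or mark a pseudogene and were not taken. The highest of those stood at 0.611 units, on the scale explained below.

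All 6 animals were C57BL/6 mice aged 24 weeks, 3 of them wild type and 3 TLR4ΔIEC. The latter lack Toll-like receptor 4 (Tlr4), the receptor for bacterial lipopolysaccharide, in intestinal epithelial cells by a conditional deletion. The promoter that drives the deletion, and whether the wild type animals carried any of its alleles, are details that the sources used here leave unstated. Whole ileum was used, so each value mixes epithelium, muscle, immune cells and vessels.

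The deposited data are average read coverage per base of each gene, in 1 column per genotype that its 3 mice share. Each column was treated as a pool, so there is no spread between mice, no test and no p-value, and every difference given here is one between 2 columns. The mice of each genotype were also sequenced together, apart from the other genotype, so genotype and sequencing pool cannot be told apart. The wild type column listed 22724 entries with a summed coverage of 699800, and the TLR4ΔIEC column 22687 entries with 698473. For Tlr4 itself the coverage was 1.98 against 1.60 in TLR4ΔIEC, over the whole transcript and in all cells of the tissue, which checks the labels only weakly. The tissue carried its defining genes in both columns: the ileal bile acid binding protein Fabp6 was at 15350 units against 13628 in TLR4ΔIEC, and the ileal bile acid transporter Slc10a2 at 93.01 and 93.7 units.

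Cytochrome P450 enzymes hold a haem group whose iron is bound by a cysteine, and with electrons from a reductase they insert oxygen into small lipid-like molecules. Families 1, 2 and 3 are best known for the oxidation of drugs, toxins and steroids. The Cyp2c and Cyp2j subfamilies also turn arachidonic acid into epoxides and hydroxy acids, and family 4 hydroxylates the far end of fatty acids, leukotrienes and vitamin E. In the small intestine these enzymes sit in the endoplasmic reticulum of enterocytes, where they act on food compounds and oral drugs before the blood does.

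The stretch that encodes the haem-binding loop is the part that these enzymes share, and it is shown for the members the results turn on. It was searched for in the coding sequences of GENCODE vM21 (GRCm38, the assembly of mm10), which were found for 73 of the 74 genes. In 71 of them a run of 30 bases encodes the pattern of the loop, and in Cyp2s1 and Cyp3a59 these letters were not in the sequence. In each line the capitals mark the codon of the cysteine that holds the haem iron, and each sequence is written from 5′ to 3′.
Cyp2d26: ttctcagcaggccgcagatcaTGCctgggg
Cyp2d22: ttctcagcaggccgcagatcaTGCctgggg
Cyp2c55: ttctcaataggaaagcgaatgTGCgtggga
Cyp2c65: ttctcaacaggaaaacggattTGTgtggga
Cyp3a11: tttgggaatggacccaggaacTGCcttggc
Cyp3a44: tttggaattggacccaggaacTGCattggc
Cyp3a13: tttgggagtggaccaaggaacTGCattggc
Cyp4f14: ttctcggcgggacccaggaacTGCatagga
Cyp4f40: ttctcagcggggccaaggaacTGCattgga
Cyp4b1: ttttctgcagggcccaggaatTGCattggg

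The likeness of these genes bears on how far their values can be separated. Cyp2d26 and Cyp2d22 have the same loop stretch, and 78.1% of their coding bases agree. Of all stretches of 100 bases in the Cyp2d26 transcript, 0.375% occur in the transcript of another gene. For Cyp3a11 and Cyp3a44, whose coding sequences are 94.9% identical, these shares are 0.312% and 5.37%. No such stretch of Cyp2c55, Cyp4f14, Cyp4f40, Cyp3a13 or Cyp2j6 occurs elsewhere. Among the 20 members that passed the level filter described next, the shares are largest for Cyp2c40 (44.1%, mainly in Cyp2c69) and Cyp2c68 (19.8%, mainly in Cyp2c40), and the values of both are uncertain. Counted as stretches of 50 bases, the share is 26.5% for Cyp3a44 and 14.8% for Cyp3a11, mainly with Cyp3a41a. Exons of another gene overlap 3.21% of the exon bases of Cyp2c55, 5.27% of Cyp2s1 and 8.22% of Cyp4v3, the last on the same strand. The length behind each average was recovered as the smallest that gives whole bases of reads. It was counted as shared where the smaller length of the 2 columns divides the larger. By this rule no shared length was recovered for Cyp3a11, Cyp3a44, Cyp2c40, Cyp4f14 and Cyp4f40. A longer length could still fit both columns for Cyp4f14 (218 and 1417 bases) and Cyp4f40 (789 and 526). How long the reads were, and how reads with several matches were treated, is unstated.

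Coverage was put on a common scale by the median ratio of the columns, and both were set to a mean total of 1000000 units, so that 5 units stand for a coverage of 3.41 for wild type and 3.58 for TLR4ΔIEC. Levels of different genes are set side by side as averages per base, and the rule of averaging is unstated, so ranks and shares by level describe these values only. A gene counts as measured where its mean over both columns was at least 5 units. Log2 ratios are of TLR4ΔIEC over wild type after 1 unit was added to each level, which makes the ratios of low genes smaller. Folds written in words are of the levels themselves, with nothing added. A gene is called lower or higher where this ratio is at least 2-fold.

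The summed P450 level was lower in the TLR4ΔIEC column, and the lowest ratios were those of Cyp2d26, Cyp3a44, Cyp2c55 and Cyp3a11. Summed over all 74 genes, it was 924 units for wild type and 501 for TLR4ΔIEC, 1.84-fold lower, and it was 1.74-fold lower without Cyp4f14, the most abundant member. Of the 74 genes, 20 were measured. Among these 20, 9 were called lower and 0 higher, against 2.79% lower and 1.29% higher among all 8891 measured genes (248 and 115 genes, or 206 and 144 with the coverage left unscaled). The log2 ratio was below 0 for 19 of the 20, against 47.4% of all measured genes, and the 2 nearest to 0, Cyp3a13 and Cyp2j6, lay above it with 3 of the other scalings (Cyp3a13 with 4). The median of the 20 was -0.89, beside 0.03 for all measured genes. These counts cover only the genes that passed the filter, and 6 of the 20 passed through their wild type level alone. Of these 6, 5 are among the 9, namely Cyp3a44, Cyp3a11, Cyp4b1, Cyp2d22 and Cyp2c40. Thus Cyp3a44 and Cyp3a11, of the 4 genes with the lowest ratios, were measured only through the column where they are high. Of the 14 with at least 5 units in both columns, 4 were called lower. The share of all genes called under that stricter filter was not computed, so this count has no background beside it. In whole tissue, fewer cells of a type and less RNA per cell cannot be told apart.

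**Figure D1:**
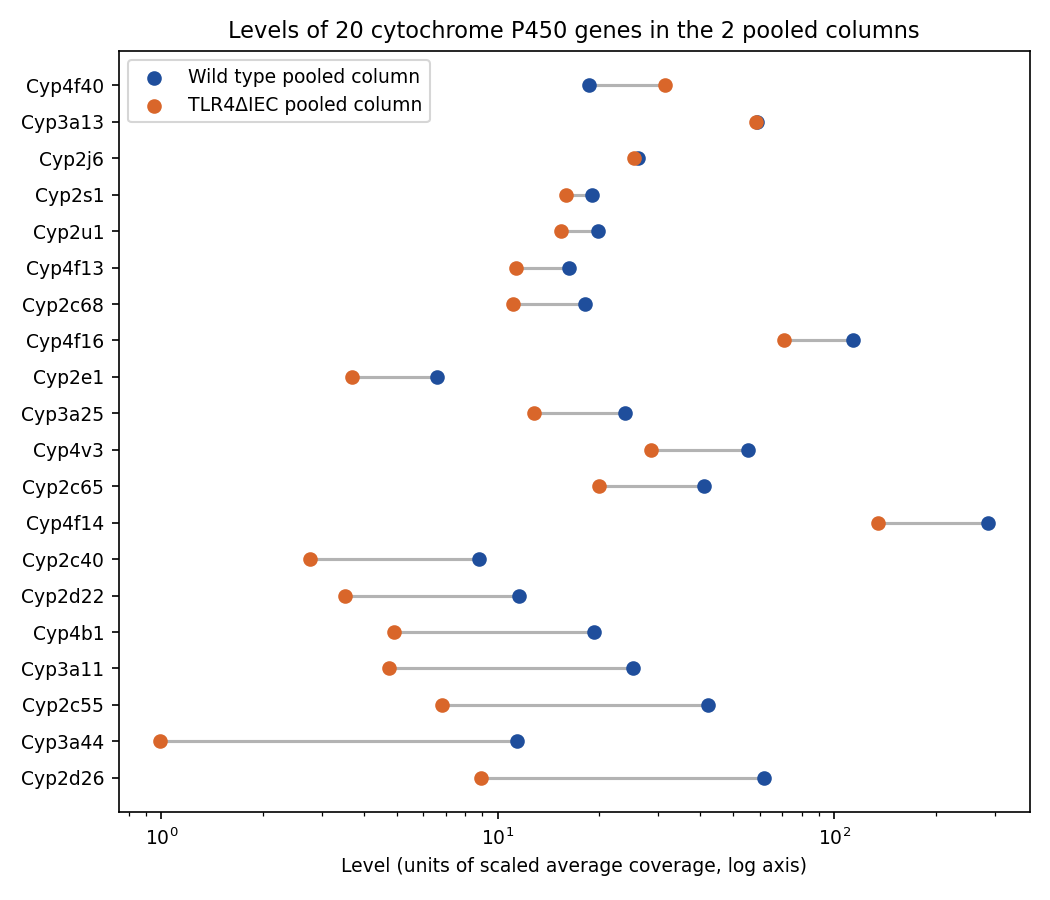
Level of each of the 20 measured P450 genes in the wild type (blue) and TLR4ΔIEC (orange) pooled columns, in units of scaled average coverage on a log axis, ordered by ratio. Only Cyp4f40 is higher in the TLR4ΔIEC column by more than its marker, while Cyp3a13 and Cyp2j6 have nearly equal levels and Cyp3a44 spans the widest range, from 11.4 to 0.992 units.

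The Cyp2d genes, of a subfamily known for oxidizing plant alkaloids and basic drugs, had the lowest summed ratio of the subfamilies with a measured gene. Their summed level was 79.6 units for wild type and 15.7 for TLR4ΔIEC, 5.06-fold lower, and their share of all P450 signal was 8.61% and 3.14%. Cyp2d26 (chromosome 15, 82790107 to 82794452, minus strand, mm10) had a coverage of 42.3 for wild type and 6.38 for TLR4ΔIEC, or 61.99 and 8.91 units. That is 6.96-fold lower, with a log2 ratio of -2.67 that ranks 5 from the lowest among the 8891 measured genes. The values rest on 69558 and 10487 bases of reads over the same length of 1645 bases. Cyp2d26 was the third most abundant P450 gene in wild type and rank 13 in TLR4ΔIEC.

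Cyp2d22 (chromosome 15, 82370527 to 82380260, minus strand) was at 11.5 units for wild type and 3.52 for TLR4ΔIEC, a log2 ratio of -1.47 from 23254 and 7434 bases of reads. The ratio was -0.96, short of 2-fold, with 5 units added. These 2 genes lie at opposite ends of the Cyp2d cluster, which spans 82370527 to 82794452 and holds all 9 Cyp2d members. The 7 members between them were under the filter, with coverages of 0.123 to 1.99 in wild type and 0.107 to 0.867 in TLR4ΔIEC. The highest of these was Cyp2d40, named after its values were seen, at 1.99 and 0.867.

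Cyp2c genes, which oxidize drugs and arachidonic acid, had a summed level of 117 units for wild type and 44.02 for TLR4ΔIEC, 2.67-fold lower. Of 15 members, 4 were measured, 3 of them called lower. Cyp2c55 (chromosome 19, 39006940 to 39042690, plus strand), which makes a hydroxy acid from arachidonic acid, had a coverage of 28.7 and 4.87, or 42.1 units for wild type and 6.81 for TLR4ΔIEC. It was 6.18-fold lower (log2 ratio -2.46, rank 9 from the lowest), on 57150 and 9695 bases of reads over 1989 bases. Its next neighbour Cyp2c65 (39061006 to 39093948, plus strand) had nearly the same wild type level, 40.97 units, but 19.96 in TLR4ΔIEC. Cyp2c65 thus lay just inside the limit, at 2.05-fold lower before 1 unit was added. Its log2 ratio lay outside the limit with each of the 5 other scalings (from -0.90 to -0.998) and with 5 units added (-0.88).

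The shares of the pair differed between the columns. Cyp2c55 made up 35.9% of the summed Cyp2c level for wild type and 15.5% for TLR4ΔIEC, while Cyp2c65 made up 34.9% and 45.3%. The third gene of that end of the cluster, Cyp2c66, is 96.3% identical to Cyp2c65 in its coding sequence. It was under the filter and is named after its values were seen, at a coverage of 3.03 for wild type and 0.582 for TLR4ΔIEC. Of the 2 measured genes farther along the cluster, Cyp2c40 was at 8.81 and 2.77 units (-1.38, or -0.83 with 5 units added). Cyp2c68 was at 18.1 and 11.1 units (-0.67). As given above, these last 2 share long stretches with each other and with Cyp2c69.

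The Cyp3a genes, the main oxidases of oral drugs in the gut, were split. Cyp3a11 (chromosome 5, 145854607 to 145879854, minus strand), the classic target of the pregnane X receptor, was at 25.2 units for wild type and 4.74 for TLR4ΔIEC. It was 5.32-fold lower (-2.19, rank 14 from the lowest). Its neighbour Cyp3a44 (145773983 to 145805891, minus strand) was at 11.4 and 0.992 units, 11.5-fold lower (-2.64, rank 6). The next gene on the other side, Cyp3a25 (145977192 to 146009644, minus strand), was at 23.8 and 12.8 units, a log2 ratio of -0.84 that did not reach 2-fold. Cyp3a13 (137892933 to 137925610, minus strand), which lies apart from the cluster on the same chromosome, was at 58.9 units for wild type and 58.6 for TLR4ΔIEC (-0.01).

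Cyp3a13 made up 47.3% of the summed Cyp3a level for wild type and 73.8% for TLR4ΔIEC, and Cyp3a11 20.3% and 5.97%. For Cyp3a11 the recovered lengths differ, 35357 bases of reads over 2053 bases in wild type and 6731 over 1983 in TLR4ΔIEC. For Cyp3a44 the smallest lengths that give whole bases are 327 and 472, with 2548 and 335 bases of reads, or multiples of these, so its fold is less certain than that of Cyp3a13, which rests on 118757 and 123882 bases. Adding 5 units in place of 1 gave -1.46 for Cyp3a44, and adding 0.1 gave -3.40. The other 3 Cyp3a genes had coverages of 0.746 to 1.90 in wild type and 0.141 to 0.843 in TLR4ΔIEC.

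**Figure D2:**
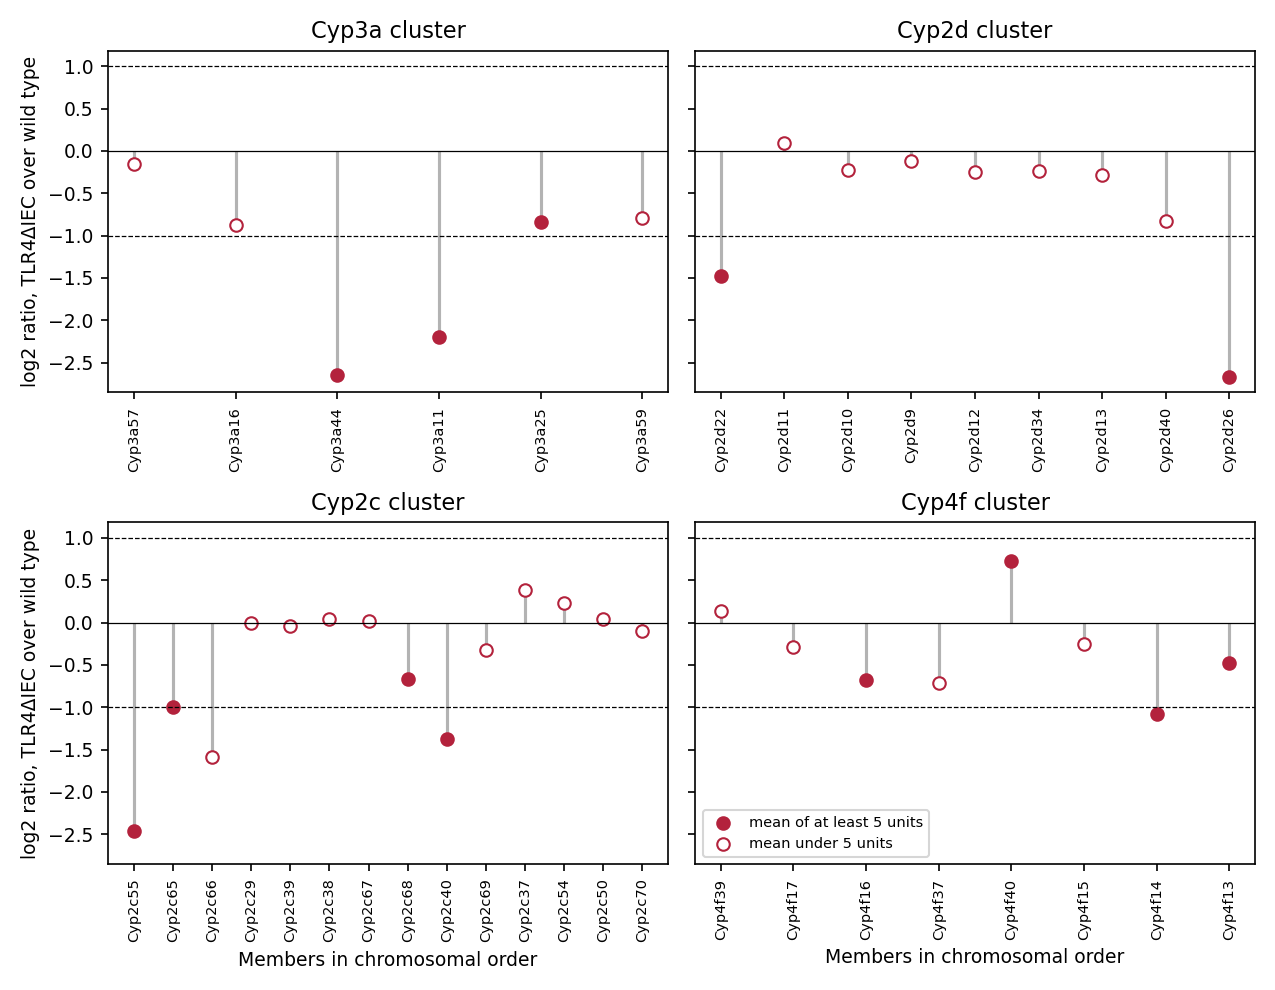
Log2 ratio of TLR4ΔIEC over wild type for the members of 4 P450 gene clusters in chromosomal order, with filled points for genes at or above the filter of 5 units, open points for weaker genes, and dashed lines at 2-fold. Cyp3a44 and Cyp3a11 lie next to each other at -2.64 and -2.19, Cyp2d22 and Cyp2d26 stand at opposite ends of their cluster, and Cyp4f40 at 0.73 stands between lower genes.

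The upstream DNA of the Cyp3a genes is shown because the 2 lowest of them are neighbours. The searched window held 250 bases before and 50 after each RefSeq start (GRCm38.p6), and 61 of the 74 genes had one. The letters AGGTCA, the core letters bound by nuclear receptors such as the pregnane X receptor, were searched on both strands. They occurred in 16.3% of all 32851 promoter windows and in those of 18 of the 61 genes. A gene counts where any of its windows holds a match, and some genes have several windows. Counts of genes and shares of windows are therefore unlike measures, here and for the letters below. Among the 18 measured genes with a window, only Cyp3a11, Cyp3a44 and Cyp3a25 held them. The match is in capitals in the lines below, each 66 bases read 5′ to 3′ on the minus strand, with the match ending 156, 144 and 170 bases before the start. Cyp3a25 held another match in the reverse letters, and Cyp3a13 none.
Cyp3a11, chr5:145879981-145880046: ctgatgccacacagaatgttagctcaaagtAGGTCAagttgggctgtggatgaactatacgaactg
Cyp3a44, chr5:145805989-145806054: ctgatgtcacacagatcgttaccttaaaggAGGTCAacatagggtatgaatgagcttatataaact
Cyp3a25, chr5:146009759-146009824: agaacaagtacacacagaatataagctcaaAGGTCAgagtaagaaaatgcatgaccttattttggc

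The 3 stretches stand at like distances from the RefSeq start. Another annotated start of Cyp3a11, in GENCODE, lies 110 bases farther upstream, so its match is nearer to that start. Any relation between matches and ratios was not tested. The longer letters TGACCTTTG, which contain the same core in reverse, occurred in 0.478% of all windows and, among measured members, in Cyp3a25 alone. A direct repeat of AGGTCA with 1 base between the copies occurred in 0.0396% of all windows and in 0 of the 61. The letters GCGTG, the core of the dioxin receptor's site, occurred in 32.4% of all windows and in 4 of the 18 measured genes, Cyp2c68, Cyp4f14, Cyp4f16 and Cyp4v3. A match describes letters and shows no binding.

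Family 4 held the largest part of the P450 signal in both columns, 56.4% for wild type and 57.8% for TLR4ΔIEC, mostly through the Cyp4f genes, which inactivate leukotrienes and hydroxylate fatty acids. Cyp4f14 (chromosome 17, 32903357 to 32917376, minus strand), a hydroxylase of leukotriene B4 and of vitamin E, was the most abundant member in both columns. Its coverage was 196 for wild type and 96.5 for TLR4ΔIEC, or 287 and 135 units, a log2 ratio of -1.08. This call is near its limit: it was -0.98 after scaling to a total that leaves out the 50 highest genes, and -0.96 with quantile normalization. Cyp4f16 (32536545 to 32551798, plus strand), the second most abundant, was at 114 and 70.7 units (-0.68), and Cyp4f13 (32924688 to 32947415, minus strand) at 16.3 and 11.4 units (-0.48).

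Cyp4f40 (32658886 to 32676919, plus strand) was the 1 measured member with more signal in the TLR4ΔIEC column, at 18.6 against 31.5 units. Its log2 ratio of 0.73 did not reach 2-fold and lay between 0.63 and 0.83 over the settings tried. The smallest lengths that give whole bases were 789 for wild type and 526 for TLR4ΔIEC. Neither divides the other, but a longer length could fit both columns. Its rank by level among the 74 genes was 14 for wild type and 4 for TLR4ΔIEC. Cyp4b1 (chromosome 4, 115624698 to 115647721, minus strand), which hydroxylates fatty acids and activates some plant toxins, was at 19.3 units for wild type and 4.93 for TLR4ΔIEC, 3.93-fold lower (-1.78) on 24695 and 6597 bases of reads. Its neighbours in that cluster, the 4 Cyp4a genes and Cyp4x1, were all under the filter. Cyp4v3 (chromosome 8, 45305801 to 45333163, minus strand), a fatty acid hydroxylase, was at 55.4 and 28.5 units (-0.94), just outside the limit.

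**Figure D3:**
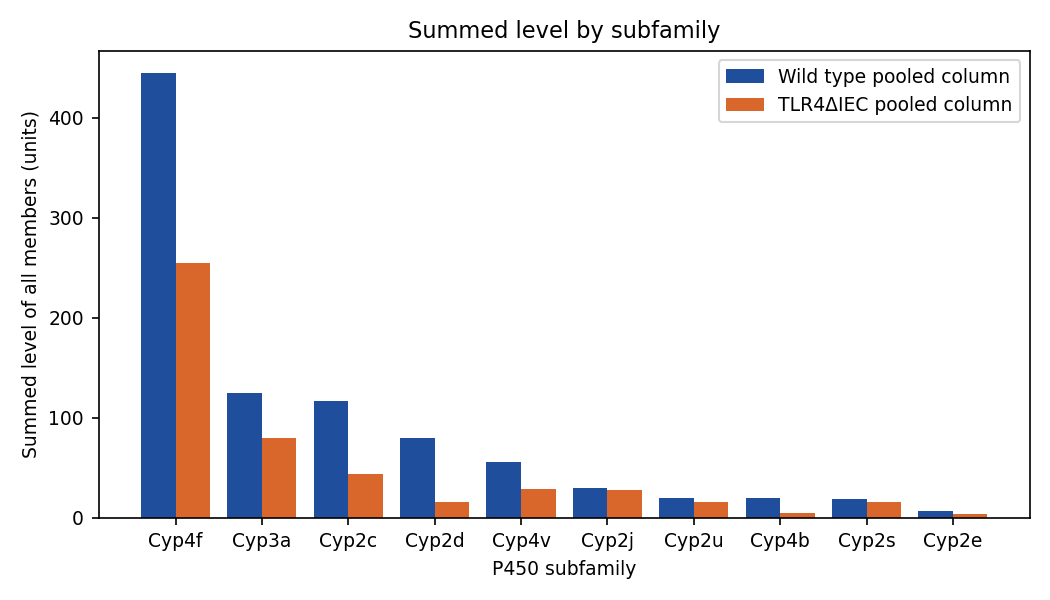
Summed level of all members of each P450 subfamily with at least 1 measured gene, in units, in the wild type (blue) and TLR4ΔIEC (orange) pooled columns. Cyp4f is the largest in both (445 and 255 units), the largest relative gap among subfamilies of several genes is that of Cyp2d (79.6 and 15.7 units), and Cyp2j is nearly level (29.7 and 27.9 units).

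The remaining 4 measured members had log2 ratios between -0.70 and -0.05. Cyp2j6 (chromosome 4, 96516138 to 96564305, minus strand), of the arachidonic acid epoxygenase subfamily, was at 26.2 units for wild type and 25.3 for TLR4ΔIEC (-0.05). Cyp2u1 (chromosome 3, 131290491 to 131304157, minus strand), a long-chain fatty acid hydroxylase, was at 19.9 and 15.4 units (-0.34), and shares 10.4% of its exon bases with a gene on the opposite strand. Cyp2s1 (chromosome 7, 25802469 to 25816525, minus strand), an epithelial P450, was at 19.1 and 15.9 units (-0.24). Cyp2e1 (chromosome 7, 140763819 to 140774990, plus strand), the ethanol-oxidizing P450, was low, at 6.58 and 3.67 units (-0.70). The call was reached by 0 of these 4.

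**Figure D4:**
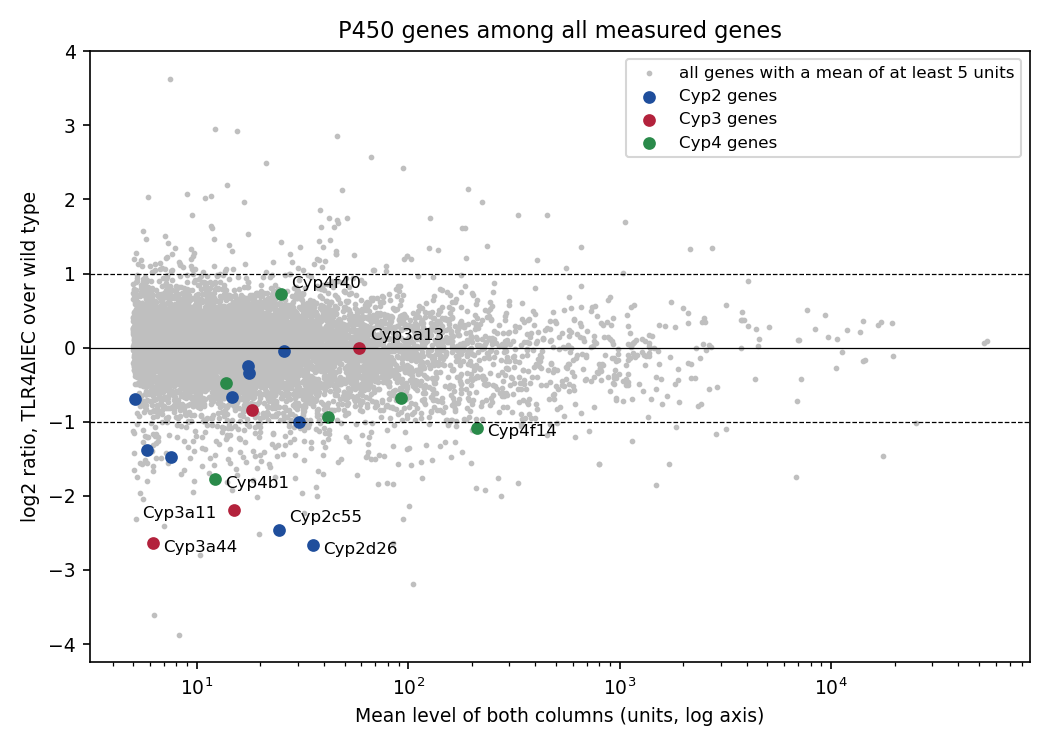
Log2 ratio of TLR4ΔIEC over wild type against the mean level of both columns (units, log axis) for 8891 genes (grey) and the measured P450 genes of families 2, 3 and 4 (coloured), with dashed lines at 2-fold. Cyp2d26, Cyp3a44, Cyp2c55 and Cyp3a11 lie between -2.67 and -2.19 at the lower edge of all genes, while Cyp3a13 lies near 0 and Cyp4f40 at 0.73.

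The remaining 54 genes had coverages between 0.021 and 3.03, and 45 of them were under 1 in both columns. Their levels were below wild type for 36 and above for 18, against 51.8% below among all genes under the filter. At such coverage a value can rest on a few reads. Cyp1a1, a target of the aryl hydrocarbon receptor that oxidizes plant and smoke compounds, had a coverage of 0.52 for wild type and 0.021 for TLR4ΔIEC, the latter from 46 bases of reads at the smallest length that gives whole bases. Cyp1b1, which oxidizes oestrogens, was at 1.15 and 1.97. Cyp2r1, which makes the circulating form of vitamin D, was at 0.562 and 1.62.

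Other subfamilies were near the floor of the data. The member with the highest mean was, in each, Cyp2a12 (0.178 for wild type and 0.467 for TLR4ΔIEC), Cyp2b10 (0.441 and 0.442), Cyp2f2 (0.183 and 0.205), Cyp2g1 (0.0954 and 0.0379), Cyp2t4 (0.16 and 0.14), Cyp2w1 (0.538 and 0.823), Cyp4a10 (0.389 and 0.552) and Cyp4x1 (0.129 and 0.0838). Cyp2b10, the usual target of the receptor CAR, was thus equal in both columns at a coverage of under 1. Cyp4a10 and the other Cyp4a genes, targets of PPAR-alpha in liver, had a summed level of 1.26 units for wild type and 1.63 for TLR4ΔIEC.

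Genes that serve P450 enzymes lay on both sides of 0. P450 reductase (Por), which passes electrons to all of these enzymes, was at 35.04 units for wild type and 22.3 for TLR4ΔIEC (-0.63). A cytochrome b5 gene, Cyb5b, was at 121 and 136 units (0.17), and the b5 reductases Cyb5r3 (0.19) and Cyb5r1 (0.44) were slightly above 0. Another listed cytochrome b5 gene, Cyb5a, was not found under that symbol in both columns, so it has no value here. Of 6 measured electron donor genes, 0 differed by 2-fold, 2 lay below 0 and 4 above, and the median log2 ratio was 0.18, or -0.06 with a filter at 20 units. For haem synthesis and breakdown, 0 of 11 measured genes differed by 2-fold, 4 lay below 0 and 7 above, and the median was 0.24. Alas1, the first and limiting enzyme of haem synthesis, was at 23.5 units for wild type and 38.4 for TLR4ΔIEC (0.68), with Alad at 0.01 and Uros at -0.28.

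Of 16 measured transcription factors that sense xenobiotics or lipids or drive P450 genes, 0 differed by 2-fold, 11 lay below 0 and 5 above, and the median was -0.19. Their ratios ran from -0.75 (Nr1h3) to 0.97 (Dbp), both named after their values were seen. The pregnane X receptor gene Nr1i2 was at 36.5 units for wild type and 26.3 for TLR4ΔIEC (-0.46). The dioxin receptor partner Arnt was at 0.33, and the fatty acid receptors Ppara and Ppard at -0.16 and -0.65. Named after their values were seen, the enterocyte factor Hnf4a was at 246 and 229 units (-0.11), and the dioxin receptor gene Ahr, under the filter, at 3.22 and 5.15 units.

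P450 genes of other families were mostly weak, with 2 of 19 measured. Cyp27a1, the sterol 27-hydroxylase, was at 19.4 units for wild type and 8.93 for TLR4ΔIEC (-1.04), and Cyp51 of cholesterol synthesis at 44.03 and 42.3 units (-0.06). Of 9 measured genes of other arachidonic acid pathways, 0 differed by 2-fold, 3 lay below 0 and 6 above, and the median was 0.21, or -0.22 with a filter at 20 units. The phospholipases Pla2g2a and Pla2g4a were at 0.23 and 0.30, the cyclooxygenase Ptgs1 at 0.44 and Alox5ap at 0.27. The 3 below 0, named after their values were seen, were Ephx2, the hydrolase of fatty acid epoxides (-0.89), the prostaglandin dehydrogenase Hpgd (-0.65) and the leukotriene synthase Ltc4s (-0.52). Of 13 measured flavin monooxygenases and other phase I oxidoreductases, 1 was called lower, the carbonyl reductase Cbr1 (237 and 97.1 units, -1.28). Of the 13, 5 lay below 0 and 8 above, and the median was 0.10, with Fmo2 at 0.48, Fmo4 at 0.10, Fmo5 at -0.97 and Adh1 at -0.64. The highest was Nqo1 (18.1 and 36.9 units, 0.99), just short of the limit and named after its values were seen.

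**Figure D5:**
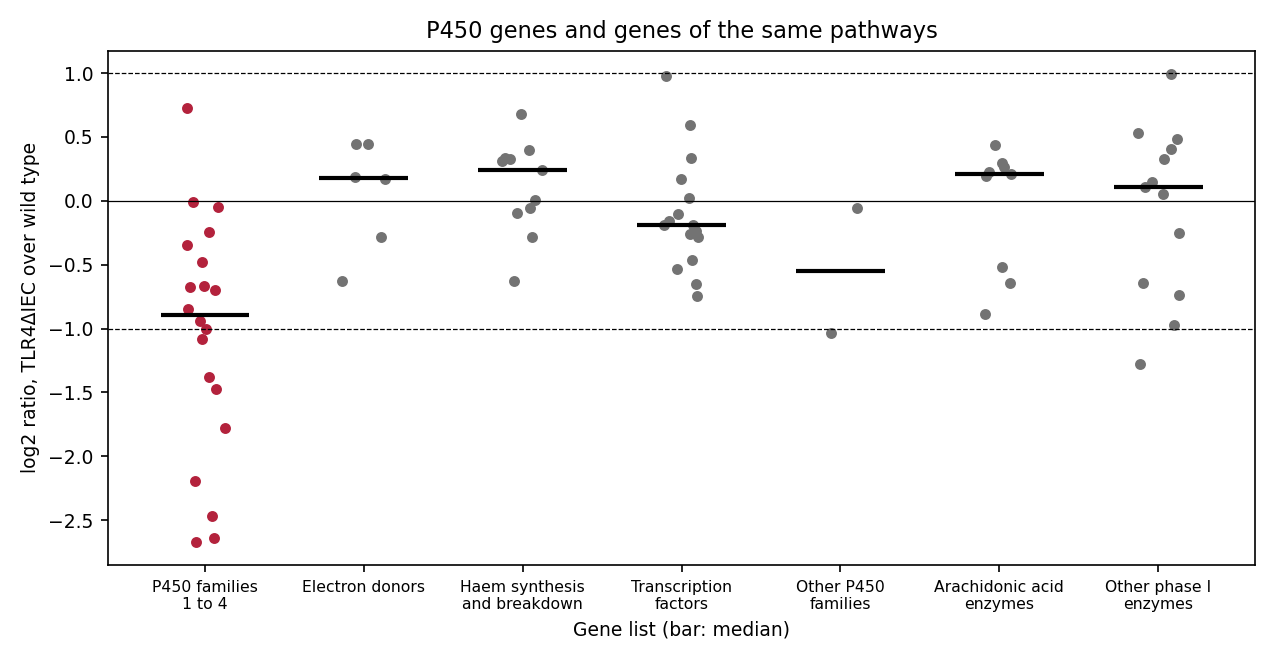
Log2 ratio of TLR4ΔIEC over wild type for each measured gene (points, spread sideways for view) of the P450 families 1 to 4 (red) and of 6 related gene lists (grey), with the median of each list as a bar and dashed lines at 2-fold. The P450 median is -0.89, and the medians of the other lists lie between -0.55 (2 genes of other P450 families) and 0.24 (haem genes).

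Markers of cell types also differed between the columns, and their part in the P450 values was not tested. Enterocyte markers were uneven. Their summed level was 7643 units for wild type and 5043 for TLR4ΔIEC, of which Fabp2 alone was at 3942 and 1750. Of 9 measured genes, 8 lay below 0 and 1 above, and 2 were called lower, Alpi (-1.36) and Fabp2 (-1.17). The brush border genes Vil1 (589 and 584 units) and Anpep (1237 and 1130 units) were nearly level. Ileal enterocyte markers summed to 16612 and 14644 units, with 0 of 6 called. Crypt markers summed to 290 and 414 units, goblet markers to 15306 and 11210, and Paneth markers to 78136 and 83148, with 0 called in each. Of 6 measured goblet genes, 4 lay below 0 and 2 above. Named after their values were seen, Zg16 was at 8567 and 5187 units and Tff3 at 3041 and 1792. Enteroendocrine markers summed to 664 and 272 units, of which Sct alone was at 411 and 121. Of 7 measured, 3 were called lower (Sct, Nts and Pyy), 5 lay below 0 and 2 above. The 2 above, named after their values were seen, were Gcg (0.002) and Tac1 (0.97).

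Adipocyte markers summed to 232 and 113 units, with 4 of 5 called lower (Cfd, Car3, Cidec and Adipoq). Immune markers summed to 345 and 923 units (1 of 7 called higher, Igj), red blood cell markers to 188 and 436 (the 4 measured globin genes, all called higher) and smooth muscle markers to 891 and 1046 (0 of 7 called). Hepatocyte markers summed to 360 and 324 units, most of it from Apob and Cps1, which enterocytes also express, and went in both directions. Of 3 measured, Serpina1b was at 30.8 and 15.7 units (-0.93), Apob at 266 and 189 (-0.49), and Cps1 at 51.6 and 106 (1.03, called higher). Albumin (Alb) was under the filter, at 0.839 units for wild type and 6.11 for TLR4ΔIEC, and so were Tat (-0.66) and Serpina1a (-0.62). Serpina1b, Alb, Tat and Serpina1a are named after their values were seen. Pancreatic acinar markers summed to 9.36 and 14.2 units. No listed marker was at 0, since the files list only values above 0.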

How the data were processed

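Ileal RNA of 6 mice was sequenced as Ion Torrent whole-transcriptome libraries after removal of ribosomal RNA, per the labels' protocols. Per the submitters' processing notes, TopHat2 2.0.10, Bowtie2 2.1.0 and the mm10 build were used, with no roles stated. The authors deposited coverage, averaged over each RefSeq entry per the file headers. How it was computed or scaled, the read length and the use of strand are unstated. No value per mouse was used. The precision of low values is unknown, since reads cannot be counted. Repeated symbols were represented by their highest entry. Columns were scaled by the median of ratios (factor 1.05), and lengths behind the averages were recovered as whole divisors up to 30000 bases (tolerance 1e-08 bases). A shared length, where the smaller of the 2 recovered lengths divides the larger, was found for 15 of the 20 measured members. Longer common lengths were not tried.

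The design had foreseen a model across mice only if the files held 1 column per mouse. Every member with a mean of at least 5 units is named, weaker ones where highest in their subfamily, and of each pathway list the first 4 measured genes; called genes of all lists are named. The value of 1 such gene is not reported here. The members and the 6 gene and 12 marker lists were chosen with earlier results of these data known. Coordinates are from RefSeq (GRCm38.p6), which held all 74 genes, 73 of them under the same symbol. Clusters join members less than 1 megabase apart. Protein sequences were not used here. Steps were tested on simulated data. Python 3.11.15, numpy 2.4.6, pandas 2.3.3 and Biopython 1.88 were used. Alternatives were 5 scalings, 2 pseudocounts, 3 filters, the mean over entries and genes of equal recovered length only.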

Additional observations from a re-analysis of the deposited data

How the results depend on the processing

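Counts of called P450 genes and log2 ratios of the 20 measured members were recomputed under 12 alternatives, changing 1 choice at a time. So were the median log2 ratios of the members, of their families and some subfamilies, and of the 6 gene lists. Summed levels, their folds, shares, ranks and the marker lists were computed with the main settings alone. The number of P450 genes at least 2-fold lower was 9 of 20, and 7 to 9 of 20 over the other scalings, the smaller pseudocount and the mean over entries (2.12% to 3.27% of all genes). It was 6 of 20 with 5 units added (1.64% of all genes in that setting), 10 of 29 with a filter at 1 unit (2.83%), 10 of 74 with none (1.80%), 4 of 9 with a filter at 20 units (3.53%) and 5 of 15 with genes of the same recovered length only (2.73%). The number at least 2-fold higher was 0 in every setting. The median of the measured genes lay between -0.70 and -0.94, except with no filter, where it was -0.13 over all 74 genes and 0.00 over all genes of both columns. Of the 20 named members, 14 kept their side of 2-fold and their sign in every setting that kept them. The other 6 were Cyp2c65, Cyp4f14, Cyp2c40 and Cyp2d22, which missed 2-fold in 6, 2, 1 and 1 settings, and Cyp2j6 and Cyp3a13, whose ratios near 0 changed sign in 3 and 4. With a filter at 20 units the medians of the electron donors (-0.06) and arachidonic acid enzymes (-0.22) lay below 0, and that of other P450 families lay above 0 with a filter at 1 unit (0.25) or none (0.03). Leaving out mice was not possible, since the columns are pools. No paired analysis was possible because each genotype has 1 column. Coverage limits the weaker genes, and the cause of these shifts was not tested beyond the genes and values that each setting removes or adds.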
